A study of Mus musculus with 9 samples.

Results

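The cells described here are Cd34+ fibroblasts of the Gdf5 lineage from mouse knee synovium, compared between injured and steady-state joints. They were chosen by a gate on deposited counts of unique molecular identifiers (UMIs, each standing for 1 captured RNA molecule). From the Tom+ libraries, a barcode was kept if it showed 500 or more genes and 1000 or more UMIs and if no more than 10% of its UMIs were mitochondrial. Kept barcodes with at least 1 UMI of Cd34 and 0 UMIs of Clic5 (lining fibroblasts), Ptprc (leukocytes), Pecam1 (endothelium) and Myh11 (smooth muscle) formed the gate. It held 1845 of 3598 kept Tom+ barcodes, with 573 cells from 2 steady-state libraries (234 and 339) and 1272 cells from 4 injured libraries (434, 332, 219 and 287), out of 4788 kept and 5161 deposited barcodes in all 9 libraries. Levels of these 5 genes follow from the gate and are given without a test.

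All mice carried Gdf5-Cre, a Tom reporter and Pdgfrα-H2BGFP. Tom+ cells descend from cells that expressed Gdf5, most of them in the embryonic joint interzone, and Tom-GFP+ cells are Pdgfrα-expressing cells outside that lineage. Steady-state mice were naive and 11 weeks old. Injured mice were 12 weeks old and were taken 6 days after the right knee was opened beside the patella and the trochlear cartilage was scratched through its full thickness. The Tom+ libraries came from separate mice, and the Tom-GFP+ libraries (1 steady-state, 2 injured) from matched mice. No group had the knee opened without a scratch, so scratch, surgery and the difference in age cannot be told apart.

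The sublining is the loose, vascular layer beneath the thin lining of the synovium. Its fibroblasts express Thy1 and Cd34, keep up the matrix, and signal to vessels, nerves and resident macrophages. After tissue damage such cells can divide, contract and secrete new matrix. Collagens and other matrix genes are set aside here except as a count, and the account turns to the other functions that changed.

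Defining markers of the sublining were present in both states. Thy1 UMIs were found in 68.1% to 77.8% of gate cells of the steady-state libraries and in 66.3% to 69.7% of those of the injured libraries. With each cell thinned to 4000 UMIs the ranges were 54.8% to 65.5% and 43.9% to 54.0%. The 12 sublining markers summed to 42112 to 42622 CPM in the steady-state and 30883 to 46502 CPM in the injured libraries, but they moved in opposite directions within that sum, with 2 called higher and 3 lower. Col1a1 and Col3a1, the main fibrillar collagens, rose (2.17 ± 0.24 and 1.55 ± 0.25 on the log2 scale, ± standard error), and Dcn, a collagen-binding proteoglycan, Pdgfra and Dpp4 fell (-1.44 ± 0.33, -1.18 ± 0.24 and -1.85 ± 0.48). Thy1 was at 414 and 302 CPM in the steady-state libraries and 168, 196, 221 and 249.7 CPM in the injured libraries and did not pass (adjusted p = 0.0512). Cd34 itself was at 1261 and 1369 CPM in the steady-state libraries and 326, 389, 497 and 606 CPM in the injured libraries, where CPM is the UMI count of a gene scaled to the same total in every library. Cells just inside the gate, with exactly 1 Cd34 UMI, numbered 17 and 30 in the steady-state libraries and 68, 64, 34 and 49 in the injured libraries. Thy1 UMIs were found in 70.6% and 43.3% of them in the steady state and in 41.2% to 54.4% after injury. UMIs of Prg4, a lining marker, were found in 35.3% and 60% of them in the steady state and in 68.75% to 97.1% after injury. These cells were also deeper after injury, at medians of 10462 to 18223.5 UMIs against 6005 and 6231. The part of depth in the Prg4 shares was not tested. Cells just outside the gate had 0 Cd34 UMIs and 0 of the 4 other genes. Their Thy1 shares were 29.0% and 17.4% in the steady state and 22.7% to 41.8% after injury. Their Prg4 shares were 54.8% and 49.7% in the steady state and 70.8% to 87.1% after injury.

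Markers of some other cell types differed between the states or between libraries. The 6 lining markers summed to 678 to 807 CPM in the steady-state and 887 to 3079 CPM in the injured libraries, with Clic5 at 0 by the gate, and most of the sum was Prg4 (617 and 714 CPM in the steady-state libraries and 3031, 2290.1, 1128 and 813 CPM in the injured libraries). Prg4 did not pass the test (log2 fold change 1.45, adjusted p = 0.103), while Col22a1 rose (log2 fold change 5.82, adjusted p = 0.0146). Itga6 lay the other way, at 5.99 and 9.06 CPM in the steady-state and 3.17, 5.06, 3.72 and 2.18 CPM in the injured libraries, and was not called. Htra4 and Tspan15 overlapped between groups. The 7 mural markers summed to 12.5 to 20.7 CPM in the steady-state and 121 to 437 CPM in the injured libraries, nearly all of it Acta2 and Tagln, with Myh11 at 0 by the gate and Rgs5 at no more than 4.05 CPM. The 7 osteoblast markers summed to 99.6 to 149 CPM in the steady-state and 239 to 1083 CPM in the injured libraries. In that list Spp1 rose, whereas Ibsp and Alpl fell. The 8 chondrocyte markers summed to 74.6 to 436 CPM in the steady-state and 131 to 370.1 CPM in the injured libraries. Acan rose and was the only call in that list. Col2a1, Snorc, Cnmd, Matn3 and Col9a1 were highest in injured library 3, at 141, 60.4, 34.4, 20.4 and 14.2 CPM. In any other library they were at most 42.6, 6.16, 2.80, 5.60 and 1.56 CPM. Acan and Sox9 did not follow them, and among the injured libraries both were lowest in library 3, at 24.2 CPM. Chad overlapped between groups, at 45.2 and 357 CPM in the steady-state and 2.43, 2.42, 51.7 and 11.5 CPM in the injured libraries. The 6 tenocyte markers summed to 109 to 774 CPM in the steady-state and 266 to 833 CPM in the injured libraries. The 10 macrophage markers stood at 6.16 to 50.2 CPM in 5 libraries and at 748 CPM in injured library 4, where Lyz2 gave 503 CPM although Ptprc was at 0 by the gate. The 7 endothelial, 6 neutrophil, 5 lymphocyte, 5 erythroid, 6 skeletal muscle and 5 Schwann cell markers each summed to at most 6.53 CPM in any library, and the 6 adipocyte markers to at most 1.09 CPM outside injured library 4, where they reached 11.5 CPM. Emcn, Ly6g, Cd3e, Cd3d, Ms4a1, Myh4, Sox10, Lep and Retn were at 0 in all 4 injured libraries. Pecam1, which is in the endothelial sum, was at 0 by the gate. The part of such cells in the results below was not tested.

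Gate cells made up 70.7% and 62.3% of kept barcodes in the steady state and 57.2%, 40.2%, 42.3% and 46.3% after injury (66.5% ± 5.92 against 46.5% ± 7.57, SD, n = 2 and 4). The injured libraries all lay below both others, and a two-sided exact permutation test gave p = 0.0667, the smallest p that this design allows. Cd34 and the 4 other gate genes set this share, so it describes the gate and is not independent evidence of a loss of cells. Kept Cd34+ barcodes left out for a UMI of those 4 genes numbered 6 and 12 in the steady state. After injury they numbered 52, 40, 43 and 42. Their part in the difference was not tested. Thinned to 4000 UMIs a cell, which left out 34 and 60 shallower kept cells of the steady state and 0, 22, 24 and 31 of the injured libraries, the shares were 68.4% and 60.3% against 38.1%, 32.3%, 35.6% and 38.4%. Gate cells of the injured libraries were deeper, at medians of 21007.5, 12143, 14302 and 11219 UMIs against 8715 and 8293. The 15 pairs of libraries shared 2 gate barcodes in all. UMIs of gate cells were summed within each library, since cells of 1 mouse are not replicates.

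**Figure D1:**
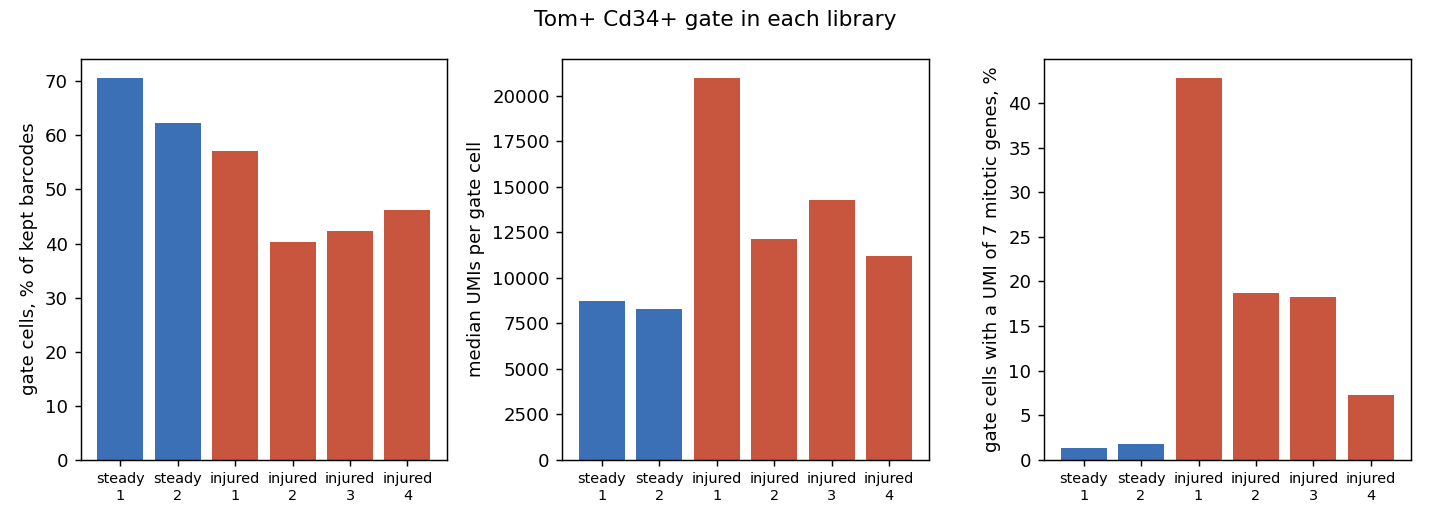
Bars give, for each of the 6 Tom+ libraries, the share of kept barcodes inside the Cd34+ gate, the median UMIs per gate cell and the share of gate cells with a UMI of any of 7 mitotic genes. Injured libraries (red) were below the steady-state libraries (blue) in the first and above them in the other measures, with injured library 1 the deepest and the richest in mitotic cells.

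Of 10878 genes tested, 582 were higher (5.35%) and 650 lower (5.98%) after injury at a false discovery rate of 0.05, which is 11.3% in either direction. Every adjusted p given here comes from the quasi-likelihood test of edgeR, corrected by Benjamini and Hochberg's method, and 3233 genes had an unadjusted p under 0.05. In RNA summed over the gate, fewer cells of a kind and less RNA per cell cannot be told apart. Among 178 matrix genes tested, 44 were higher and 22 lower. In each of the 1232 called genes all 4 injured libraries lay on the same side of both steady-state libraries, which at any p held for 21.1% of all genes in the upward and 21.7% in the downward direction. Injured library 1 was farthest from the steady state in 337 of the 582 higher and 327 of the 650 lower genes, and injured library 4 was nearest to it in 259 and 264. Library 1 was also the deepest and the richest in mitotic cells, and library 4 had the fewest mitotic cells and the most macrophage marker RNA of the injured libraries. Their part in this order was not tested. Values after ± beside a log2 fold change are approximate standard errors. Each is the absolute log2 fold change divided by the square root of the F statistic of its test.

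The number of calls rested on having both steady-state libraries. It fell to 39 higher and 66 lower genes without steady-state library 1, and to 20 and 33 without steady-state library 2. Of the 1232 genes 1231 were still tested in the first case and 1225 in the second, and 0 of those changed direction. Thinning every cell to 4000 UMIs before the gate, which makes cells equally deep but not the library sums (176 to 292 gate cells a library), left 262 higher and 312 lower genes of 8093 tested, of which 239 and 271 were also called without thinning. Removing cells with a UMI of any of 7 mitotic genes, a setting chosen after seeing the data, left 461 and 508. The planned removal of cells with 2 or more cell cycle UMIs left 180 and 205 of 8219 tested. It also took out most gate cells of each injured library. Of 166 genes chosen by the naming rules and tested there, 87 stayed called and 79 did not. List counts given with mitotic cells removed do not cover that stricter setting. The deposited gene lists came in an older format for both steady-state libraries and injured library 1 and in a newer one for injured libraries 2 to 4, so that format and injury are largely confounded. With format as a covariate 1225 genes were higher and 1062 lower. Among the older-format libraries alone, with injured library 1 as the only injured library and assumed to vary like the others, 748 were higher and 688 lower, of which 371 and 343 were among the calls of the full comparison. Counts of called genes in the lists that follow are to be read against 5.35% higher and 5.98% lower of all genes.

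**Figure D2:**
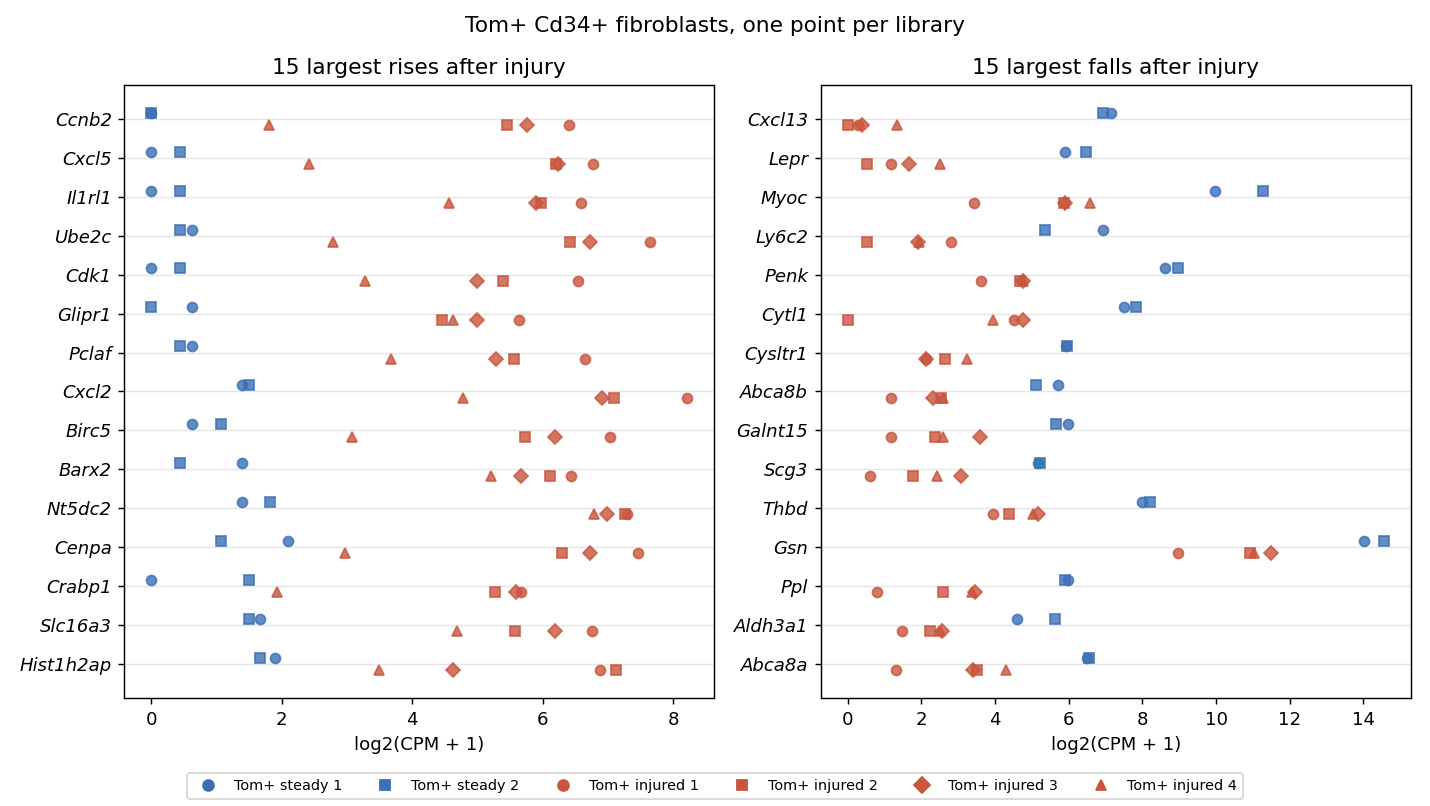
Each point is 1 library, on a log2 scale of CPM + 1, for the 15 genes with the largest rise (left) and the 15 with the largest fall (right) among called genes with at least 30 CPM in the higher group and no overlap between groups that are not matrix genes or blood, muscle or immune markers. Steady-state points are blue and injured points red, separate by that choice, and in 14 of the 15 genes that rose injured library 4 (triangles) is the injured library nearest to the steady state.

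Genes of cell division were among the largest rises. UMIs of any of 7 mitotic genes (Mki67, Top2a, Ccna2, Ccnb1, Cdk1, Birc5 and Ube2c) were found in 1.28% and 1.77% of gate cells of the steady state and in 42.9%, 18.7%, 18.3% and 7.32% after injury. With equal depth (4000 UMIs a cell) the shares were 0% and 0.342% against 26.6%, 8.08%, 5.68% and 0.885%, so that injured library 4 came close to the steady state. Of 40 cell cycle genes 39 were tested, 13 were higher and 0 lower, with a median log2 fold change of 4.64 against -0.0034 over all genes. Cdk1, the kinase that drives entry into mitosis (ENSMUSG00000019942, chromosome 10, 69335146 to 69352938), was at 0 and 0.362 CPM in the steady-state libraries and 92.5, 41.1, 31.0 and 8.72 CPM in the injured libraries. Its level after injury was 268 times (95% counting interval 48.0 to 10582) that of the steady state, where 1 UMI was counted. Ube2c, which tags mitotic proteins for breakdown (ENSMUSG00000001403, chromosome 2, 164769898 to 164778822), was at 0.544 and 0.362 CPM in the steady-state libraries and 199.8, 84.4, 104 and 5.92 CPM in the injured libraries, a ratio of 296 times (95% counting interval 81.8 to 2443). Ccnb2, a mitotic cyclin, had 0 UMIs in both steady-state libraries and 83.9, 42.6, 53.0 and 2.49 CPM in the injured libraries. With UMIs pooled over each group it was at least 87.4-fold higher (3 counts over the steady-state group taken as the floor). That bound does not hold for injured library 4 alone, whose Cdk1 and Ube2c ratios also fall below their counting intervals. Those intervals cover counting error in the pooled UMIs and not the spread between mice. Aurka, a spindle kinase, was also at 0 at rest and at least 22.8-fold higher in the pooled UMIs. Birc5, Cenpa and Pclaf, genes of chromosome segregation and DNA replication, were higher in all 4 injured libraries, as was the histone gene Hist1h2ap, whose near-identical copies can share reads. The spread among injured mice was wide, with injured library 1 highest and injured library 4 lowest of the injured libraries for all 13. With mitotic cells removed, which takes out cells by Cdk1, Birc5 and Ube2c themselves, 16 of the list were tested and 3 were called (Cks2, Ccnb2 and Gins2). After thinning 19 were tested and 1 was called (Cks2). Without injured library 4, 27 of 39 were higher, beside 824 of 10796 over all genes. Without injured library 1, 23 of 37 were higher, beside 839 of 10751. Of 10 cell cycle inhibitors Cdkn2c alone was called, higher by 1.87 ± 0.30 on the log2 scale (standard error).

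Promoters are shown for these genes because they moved together. In RefSeq windows of 250 bases before to 50 after the gene start (GRCm38.p6), found for 11 of the 13 genes, the CCAAT box (CCAAT on either strand) was present in 9, against 41.1% of 27025 genes and 42.7% of the tested genes with an entry. The cell cycle genes homology region, searched as TTTGAA or TTCGAA on either strand, was present in 8, against 21.7% and 15.9%. Both stood together in 8, against 8.61%. The pair of sequences that follow run from 150 bases before the start to 30 after it, in the direction of the gene, with both motifs in capitals (ATTGG and TTCAAA are the motifs read on the other strand). Over the same stretch Cenpa and Ccnb2 held both motifs, Aurka and Cks2 only the CCAAT box, and Birc5 neither. A match describes the letters and is not shown to be a working site.
Cdk1, chr10:69352883-69353062, - strand: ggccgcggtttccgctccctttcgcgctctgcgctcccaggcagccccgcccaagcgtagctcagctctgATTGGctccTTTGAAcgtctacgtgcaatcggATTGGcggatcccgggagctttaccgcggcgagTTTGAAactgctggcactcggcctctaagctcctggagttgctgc
Ube2c, chr2:164769779-164769958, + strand: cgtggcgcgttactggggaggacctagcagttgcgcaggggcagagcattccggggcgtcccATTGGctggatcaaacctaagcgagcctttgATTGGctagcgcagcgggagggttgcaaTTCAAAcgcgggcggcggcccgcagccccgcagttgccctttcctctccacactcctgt

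Genes of glycolysis and of the response to low oxygen rose. Of 21 glycolysis genes 19 were tested, 7 were higher and 0 lower (median log2 fold change 1.28), and their summed level was 2981 and 3186 CPM in the steady-state libraries and 8948, 5797, 7886 and 4316 CPM in the injured libraries. Slc16a3, which exports lactate (ENSMUSG00000025161, chromosome 11, 120948480 to 120960868), was at 2.18 and 1.81 CPM in the steady-state libraries and 107, 46.6, 71.9 and 24.6 CPM in the injured libraries (log2 fold change 4.98 ± 0.77, adjusted p = 0.00924). Pfkfb3, which makes an activator of glycolytic flux, was at 2.18 and 2.54 CPM in the steady-state libraries and 15.5, 11.7, 11.8 and 11.5 CPM in the injured libraries (log2 fold change 2.40 ± 0.32, adjusted p = 0.00553), with injured libraries 2 to 4 almost level. Ldha, which turns pyruvate into lactate, was at 450.1 and 436 CPM in the steady-state libraries and 1484, 923, 1222 and 682 CPM in the injured libraries (log2 fold change 1.28 ± 0.32, adjusted p = 0.0391). Gapdh, Pfkl, Pgam1 and Pdk1 were the other 4. Slc2a1, the main glucose carrier, was higher in all injured libraries but did not pass (log2 fold change 1.65, adjusted p = 0.0957). Of 17 hypoxia responsive genes tested 6 were higher and 1 lower. Hif1a, the oxygen-regulated transcription factor, was at 71.3 and 66.7 CPM in the steady-state libraries and 256, 282, 211 and 186 CPM in the injured libraries (log2 fold change 1.76 ± 0.22, adjusted p = 0.00461). Mif, a secreted regulator of inflammation, rose by 2.12 ± 0.40 and Ddit4, an inhibitor of mTOR signalling, by 2.25 ± 0.46 on the log2 scale. Higd1a, a mitochondrial protein, also rose, whereas Ndrg1 fell (-1.14 ± 0.18). Ldha and Pdk1 are in both lists. With mitotic cells removed 6 glycolysis and 6 hypoxia genes stayed called, and after thinning 4 and 5. Of 65 genes of oxidative phosphorylation only Atp5g2 was higher and Sdha lower.

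All 11 called genes of these lists that were higher had the core of the hypoxia response element, ACGTG or GCGTG on either strand, in at least 1 promoter window. It is common, found in 46.7% of all 27025 genes with a window and in 69.6% of the 8586 tested genes that have an entry, and 9 of the 11 cell cycle genes held it too. Promoters of the lactate dehydrogenase and lactate carrier genes are shown with these cores in capitals, over the same stretch around the start. The Ldha window shown has 6 matches counted over both strands, and its other window (chr7:46846932-46847111) has 1. Over this stretch Pfkl had 1 match, Mif 0, and the windows of Pdk1 2 and 0.
Ldha, chr7:46845654-46845833, + strand: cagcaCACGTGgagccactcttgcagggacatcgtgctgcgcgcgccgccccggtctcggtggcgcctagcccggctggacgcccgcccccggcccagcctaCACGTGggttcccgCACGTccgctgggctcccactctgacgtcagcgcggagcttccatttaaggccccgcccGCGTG
Slc16a3, chr11:120948917-120949096, + strand: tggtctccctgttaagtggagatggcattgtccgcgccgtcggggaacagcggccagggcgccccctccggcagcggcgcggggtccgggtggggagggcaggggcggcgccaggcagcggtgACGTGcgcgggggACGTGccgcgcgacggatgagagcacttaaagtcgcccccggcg

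Chemokines moved in opposite directions. Of 19 tested, 5 were higher and 2 lower. Cxcl2 and Cxcl5 draw neutrophils through the receptor Cxcr2. Cxcl5 (ENSMUSG00000029371, chromosome 5, 90759360 to 90761624) was at 0 and 0.362 CPM in the steady-state libraries and 109, 73.0, 74.0 and 4.36 CPM in the injured libraries, a ratio of 363 times (95% counting interval 65.0 to 14334), and Cxcl2 was at 1.63 and 1.81 CPM in the steady-state libraries and 296, 135, 119.5 and 26.5 CPM in the injured libraries (log2 fold change 6.36 ± 1.16, adjusted p = 0.0159). Injured library 4 was lowest of the injured libraries for both, and its ratio for Cxcl5 alone falls below that counting interval. Ccl2 and Ccl7, which draw monocytes, rose by 2.41 ± 0.55 and 1.83 ± 0.41 on the log2 scale, and Ccl9 rose from 0 and 0.362 CPM to 3.11 to 13.9 CPM. Cxcl13, which draws B cells (ENSMUSG00000023078, chromosome 5, 95956951 to 95961068), went the other way, at 139.9 and 120.3 CPM in the steady-state libraries and 0.211, 0, 0.310 and 1.56 CPM in the injured libraries (log2 fold change -8.23 ± 0.50, adjusted p = 0.000591), the largest fall of any gene named here. The chemokine decoy receptor Ackr2 also fell (-2.34 ± 0.41). Cxcl12, at 2172 and 1672 CPM in the steady-state libraries and 179.6, 905, 1179 and 987 CPM in the injured libraries, did not pass (adjusted p = 0.184). Summed over the 23 listed chemokines, the level overlapped between groups, at 4174 and 3328 CPM in the steady-state libraries and 2574, 3233, 4695 and 2662 CPM in the injured libraries.

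Among 33 cytokines and receptors tested, 4 were higher and 5 lower. Il1rl1, the receptor for interleukin-33 (ENSMUSG00000026069, chromosome 1, 40429570 to 40465415), was at 0 and 0.362 CPM in the steady-state libraries and 95.5, 62.0, 58.5 and 22.7 CPM in the injured libraries, a ratio of 325 times (95% counting interval 58.3 to 12861). Tnfsf11, the osteoclast-inducing ligand RANKL, was at 0.544 and 1.09 CPM in the steady-state libraries and 29.5, 25.5, 10.8 and 15.9 CPM in the injured libraries (log2 fold change 4.55 ± 0.67, adjusted p = 0.00786). Clcf1 and Tnfrsf12a, the receptor for TWEAK, were the other 2. Csf1, the main growth factor of macrophages, fell from 235 and 298 CPM to between 41.3 and 70.3 CPM (log2 fold change -2.15 ± 0.23, adjusted p = 0.00239). Il6ra, Ifngr1, Il15 and Il16 fell by 1.25 to 1.89 on the log2 scale. Il6, at 18.0 and 6.16 CPM in the steady-state libraries and 11.2, 41.3, 33.4 and 33.0 CPM in the injured libraries, overlapped between groups and did not pass (adjusted p = 0.176).

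Calls among genes of complement (1 of 13), interferon response (3 of 29) and antigen presentation (1 of 12) were few and all lower. These are 7.69%, 10.3% and 8.33% of those tested, against 5.98% of all genes. Complement and antigen presentation thus rest on 1 called gene each. More were lower with gene list format as a covariate, as over all genes, and there the injury effect rests on injured library 1. Of 13 complement genes tested only Cd55, a brake on complement that also marks Pi16+ fibroblasts, was called (-1.64 ± 0.26), yet the summed level of the 24 listed genes was 8001 and 8071 CPM in the steady-state libraries and 850.2, 2718, 4792 and 4623 CPM in the injured libraries, with no overlap. C3, the central component, was at 993 and 1030.4 CPM in the steady-state libraries and 77.1, 479, 708 and 652 CPM in the injured libraries (adjusted p = 0.303). Without injured library 1, which was the lowest of the injured libraries, 4 of 13 complement genes were lower and 1 higher. Over all genes in that setting 865 of 10751 were lower and 839 higher. Of 29 interferon response genes Ifit2, Usp18 and Irf1 fell, 22 had a negative and 7 a positive fold change, and 0 rose. Of 12 genes of MHC class I presentation H2-Q4 fell, one of a family whose members share reads. Immediate early genes, which also respond to tissue dissociation, were mixed, with Fosl1 higher and Klf4 lower of 27 tested, and Fos at 1627 and 1568 CPM in the steady-state libraries and 557, 1337, 2228 and 1822 CPM in the injured libraries overlapping between groups.

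Of 49 actin and contractile genes tested 12 were higher, 0 lower and 37 not called (median 0.54), and the summed level of the list overlapped between groups, at 26237 and 29033 CPM in the steady-state libraries and 44295, 32672, 32051 and 28142 CPM in the injured libraries. Tagln, an actin-binding protein of smooth muscle and myofibroblasts (ENSMUSG00000032085, chromosome 9, 45929619 to 45936058), was at 3.81 and 2.17 CPM in the steady-state libraries and 72.0, 48.1, 129.8 and 64.1 CPM in the injured libraries (log2 fold change 4.76 ± 0.56, adjusted p = 0.00355). Acta2, smooth muscle actin, was at 5.44 and 16.7 CPM in the steady-state libraries and 349, 114, 124 and 49.2 CPM in the injured libraries (log2 fold change 3.79 ± 0.87, adjusted p = 0.0316). Csrp2 rose from 113 and 111 CPM to between 510.4 and 963 CPM, and Tpm2, Tpm1, Cnn2, Myl9, Actn1, Fscn1, Palld, Pdlim7 and Csrp1 made up the rest of the 12. Acta2 and Tagln are mural markers too, while Myh11, which marks mature smooth muscle, was at 0 in every cell by the gate. With mitotic cells removed 10 stayed called. After thinning 7 of the list were higher and 1 lower, and 2 were lower without injured library 1 and with DESeq2. Stmn1, which takes microtubules apart (ENSMUSG00000028832, chromosome 4, 134468320 to 134473843), was at 9.25 and 7.61 CPM in the steady-state libraries and 204, 148, 162 and 64.5 CPM in the injured libraries (log2 fold change 4.11 ± 0.52, adjusted p = 0.00413), and Tubb2a and Tubb2b rose, whereas the neuronal relative Stmn2 fell (-1.89 ± 0.44). Gsn, which severs actin filaments (ENSMUSG00000026879, chromosome 2, 35256380 to 35307892) and is also secreted, was among the most abundant messages at rest, at 16583 and 24003 CPM in the steady-state libraries and 499.6, 1949.5, 2883 and 2106 CPM in the injured libraries (log2 fold change -3.45 ± 0.55, adjusted p = 0.00989).

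Among 36 integrin and adhesion genes tested 8 were higher and 6 lower. Cd44, the hyaluronan receptor, was at 72.4 and 69.6 CPM in the steady-state libraries and 324, 265, 208 and 154 CPM in the injured libraries (log2 fold change 1.75 ± 0.31, adjusted p = 0.0146). The syndecans Sdc1 and Sdc3, the fibronectin receptor subunit Itga5, Vcam1, the cadherins Cdh2 and Cdh11, and Gpc1 also rose. Cadm3 (-2.40 ± 0.29), Itga2, Cadm1, Gpc3, Itga11 and Cd151 fell. Cadm1 had 26 UMIs at rest and 3 after injury, a ratio of 38.6 times (95% counting interval 11.8 to 199) in favour of the steady state.

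Calls among machinery for making and moving proteins went in both directions. Their number differed widely with gene list format as a covariate, where the injury effect rests on injured library 1. Of 56 genes of entry into the endoplasmic reticulum and transport to the Golgi 5 were higher and 0 lower (Kdelr3, Kdelr2, Ssr2, Srp19 and Dad1). That is 8.93% against 5.35% of all genes. Fold changes were positive in 45 of the 56, and the summed level was 10818 and 11544 CPM in the steady-state libraries and 18516, 13902, 14271 and 12674 CPM in the injured libraries. Of 30 folding genes Fkbp11, a prolyl isomerase of the secretory pathway, rose (log2 fold change 2.03 ± 0.32) and Tmx1 fell. Of 30 ribosome biogenesis genes Nhp2 and Npm1 rose. Of 39 genes in the translation factor list, not all of them translation factors themselves, Eef1e1, Eif2s1 and Eif4ebp1 rose and Eef2 and Eif4b fell. None of 20 aminoacyl-tRNA synthetases was called by edgeR at the adjusted threshold (0 by DESeq2 as well, and 3 had an unadjusted p under 0.05). Ribosomal protein genes took 193196 and 179958 CPM at rest and 139390.0 to 166279 CPM after injury, with 3 of 83 lower and 0 higher. Psmd7 was the only proteasome gene of 35 to be called, and rose. Of 14 heat shock genes Hsp90aa1 and Hspe1 rose. Of 38 lysosomal genes the proteases Ctsc and Ctsh rose and Atp6ap1 and Lamp1 fell. In amino acid supply, the transporter Slc1a4 and the proline synthesis enzyme Pycr1 rose, and Slc1a5, Slc6a6, Slc6a9 and Glul fell. In stress-response transcription Ddit4 rose and Atf5 (-1.52 ± 0.17) and Trib3 fell.

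Imprinted genes had calls in 1 direction in the full comparison. Of 13 imprinted genes tested 4 were higher and 0 lower. H19, a long non-coding RNA of fetal tissue (ENSMUSG00000000031, chromosome 7, 142575529 to 142578143), was at 5.44 and 7.97 CPM in the steady-state libraries and 135, 218, 130.1 and 219 CPM in the injured libraries (log2 fold change 4.67 ± 0.38, adjusted p = 0.00118), and Plagl1, a zinc finger factor, Rian and Grb10 rose by 0.83 to 1.64. With mitotic cells removed 5 of the list were higher and 0 lower. There was 1 lower call without injured library 1 (beside 7 higher), without injured library 4 (beside 4) and with DESeq2 (beside 6). Nt5dc2, a phosphatase-like protein of unsettled function (ENSMUSG00000071547, chromosome 14, 31131053 to 31139124), was at 1.63 and 2.54 CPM in the steady-state libraries and 156, 153, 126 and 109 CPM in the injured libraries (log2 fold change 5.96 ± 0.33, adjusted p = 0.000505), and its adjusted p stayed below 0.05 under every alternative run. Barx2, a homeobox factor (ENSMUSG00000032033, chromosome 9, 31846044 to 31913462), was at 1.63 and 0.362 CPM in the steady-state libraries and 85.0, 67.9, 49.6 and 35.8 CPM in the injured libraries, a ratio of 78.0 times (95% counting interval 30.4 to 287). Glipr1, a secreted-type protein of the CAP family (ENSMUSG00000056888, chromosome 10, 111985448 to 112002631), was at 0.544 and 0 CPM in the steady-state libraries and 48.5, 20.9, 31.0 and 23.7 CPM in the injured libraries.

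Ligands with roles in vessels and growth split by member. Of 16 angiogenesis genes 5 were higher and 2 lower. Angptl4, a secreted inhibitor of lipoprotein lipase that also acts on vessels (ENSMUSG00000002289, chromosome 17, 33773750 to 33781830), was at 15.2 and 13.8 CPM in the steady-state libraries and 155, 217, 190.2 and 156 CPM in the injured libraries (log2 fold change 3.63 ± 0.25, adjusted p = 0.000956) and is in the glucocorticoid responsive list too, where Nr3c1, the glucocorticoid receptor, fell (-0.87 ± 0.20). The growth factors Ptn and Mdk rose by 2.75 ± 0.27 and 2.30 ± 0.57, with Nrp2 and Angptl2, and the Tie2 ligands Angpt1 and Angpt4 fell. Vegfa, at 18.0 and 13.0 CPM in the steady-state libraries and 54.1, 24.2, 17.3 and 14.0 CPM in the injured libraries, overlapped between groups. In the PDGF, EGF and HGF list Hbegf, an EGF receptor ligand, was at 5.99 and 12.3 CPM in the steady-state libraries and 107, 107, 77.4 and 48.0 CPM in the injured libraries (log2 fold change 3.17 ± 0.44, adjusted p = 0.00653), Hgf and Pdgfa rose, and Pdgfra, Axl and Kitl fell. The fall of Pdgfra (-1.18 ± 0.24) stands beside the H2BeGFP reporter, which is driven from that gene and was at 477 and 474 CPM in the steady-state libraries and 165, 253, 382 and 319 CPM in the injured libraries (adjusted p = 0.13). In the TGF-beta list the activin subunit Inhba, Pmepa1 and Skil rose, and Fst, an activin antagonist, and Ltbp4 fell.

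Calls among BMP, fibroblast growth factor and hedgehog genes were lower, and Wnt genes were split. Of 25 BMP pathway genes tested 5 were lower and 0 higher, against 5.98% and 5.35% of all genes, among them the ligands Bmp2, Bmp4 and Bmp5 and the antagonist Chrd. Bmp4 (ENSMUSG00000021835, chromosome 14, 46383520 to 46390669) was at 53.9 and 75.7 CPM in the steady-state libraries and 7.28, 10.8, 17.3 and 10.3 CPM in the injured libraries (log2 fold change -2.55 ± 0.31, adjusted p = 0.00392). Of 35 Wnt pathway genes 5 were higher and 5 lower. Wnt10b (ENSMUSG00000022996, chromosome 15, 98770712 to 98778150) was at 18.5 and 25.0 CPM in the steady-state libraries and 2.11, 0.659, 3.10 and 1.87 CPM in the injured libraries (log2 fold change -3.51 ± 0.41, adjusted p = 0.00342), and Wnt2, Wnt11, Tcf7l1 and Tcf7l2 fell, whereas Wnt16, with 1 UMI at rest, reached 6.86 to 23.7 CPM, and Sfrp1, Dkk3, Ror2 and Ryk rose. Of 14 fibroblast growth factor genes Fgf2, Fgf7 and Fgf9 fell. The hedgehog targets Ptch1, Hhip and Gli1, which read out hedgehog signalling, all fell, Gli1 (ENSMUSG00000025407, chromosome 10, 127329882 to 127341974) being at 6.53 and 9.06 CPM in the steady-state libraries and 1.05, 0.659, 0.619 and 2.18 CPM in the injured libraries (log2 fold change -2.82 ± 0.50, adjusted p = 0.0152). Amotl1 fell and Tead2 rose among the Hippo genes. Igfbp3, Igfbp5 and Igfbp6, which bind insulin-like growth factors, fell by 1.46 to 2.43, and Igf2r rose. None of the 6 Notch pathway genes tested was called by edgeR (0 by DESeq2 and 3 at an unadjusted p under 0.05), and all 6 had negative fold changes.

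Guidance and neurotrophic genes fell more than they rose, with 8 lower and 1 higher of 32. Ntn1, a guidance cue (ENSMUSG00000020902, chromosome 11, 68209364 to 68400823), was at 173 and 182 CPM in the steady-state libraries and 37.6, 45.5, 47.7 and 39.9 CPM in the injured libraries (log2 fold change -2.06 ± 0.16, adjusted p = 0.00118). The neurotrophin Ntf3 was at 37.6 and 29.4 CPM in the steady-state libraries and 0.422, 4.40, 4.34 and 7.16 CPM in the injured libraries (log2 fold change -3.20 ± 0.66, adjusted p = 0.0234), and its receptor Ntrk3 fell too (-2.31 ± 0.58). Sema3c, Sema3e, Slit3, Ntn4 and Rgmb were the other 5, and Ephb2 was the gene that rose. With mitotic cells removed 5 stayed lower, and after thinning 4. Penk, the precursor of opioid enkephalins (ENSMUSG00000045573, chromosome 4, 4133531 to 4138819), was at 392 and 501 CPM in the steady-state libraries and 11.3, 24.6, 26.3 and 26.2 CPM in the injured libraries (log2 fold change -4.36 ± 0.32, adjusted p = 0.00118).

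**Figure D3:**
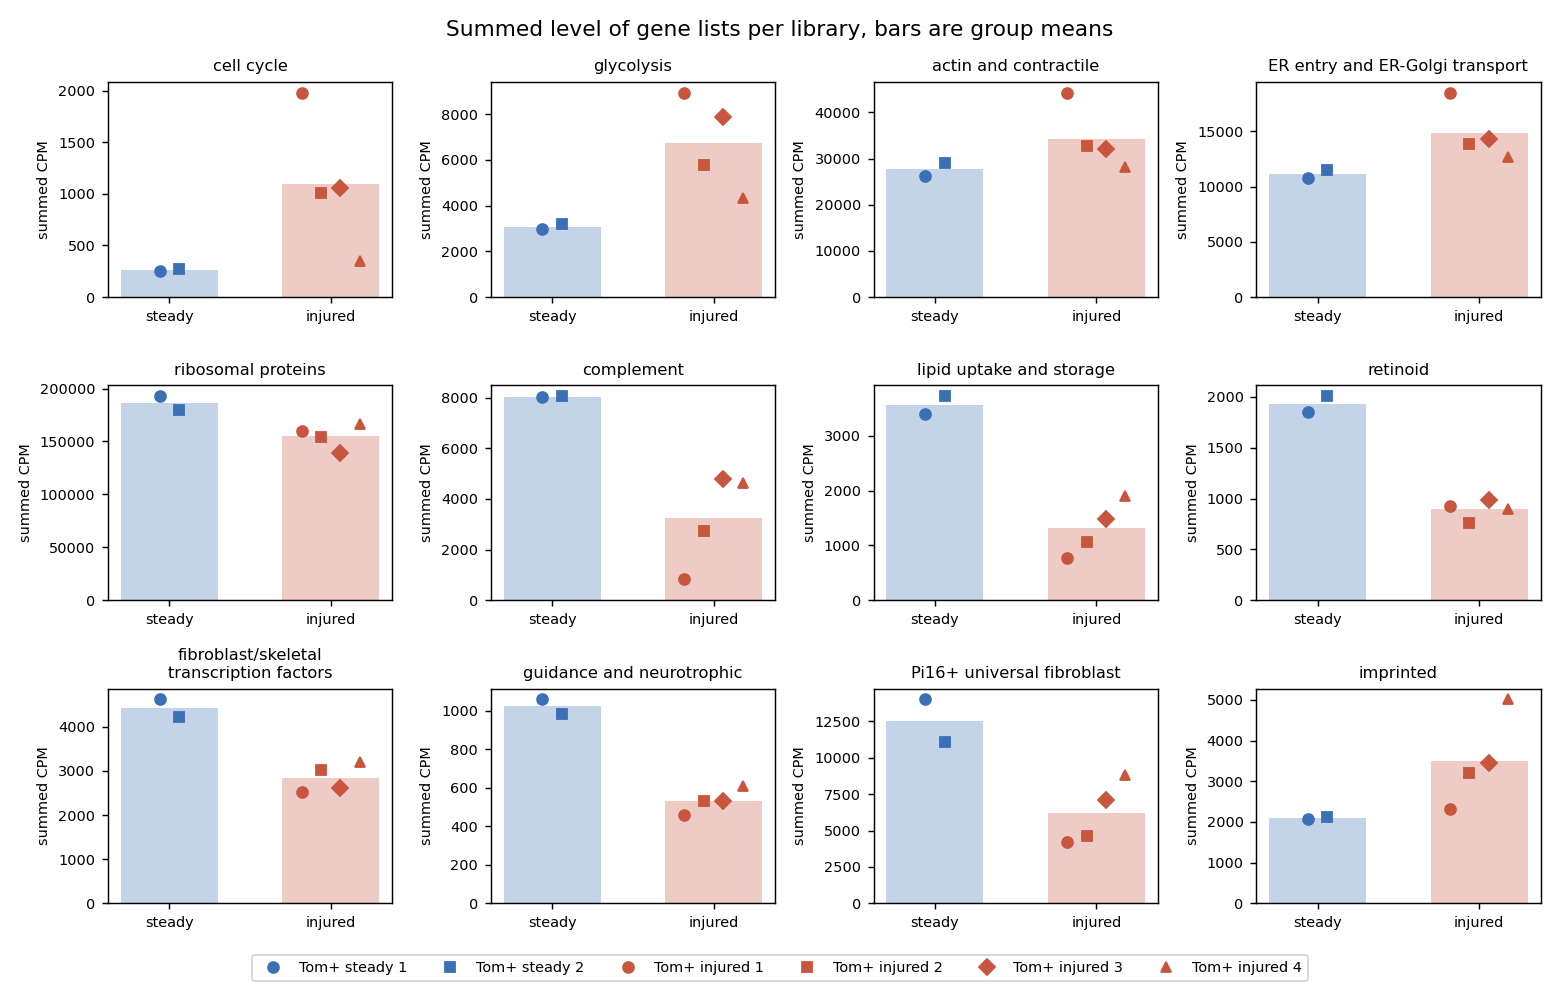
Each point is the summed CPM of all genes of a list in 1 library, bars are group means and axes start at 0, for 12 lists. Complement, lipid, retinoid, transcription factor, guidance and Pi16+ lists lie lower in every injured library. Cell cycle and glycolysis lists lie higher, and the actin list overlaps through injured library 4. At rest most of the lipid sum was Apod and most of the retinoid sum Rarres2. Without Rarres2 the retinoid sum lies higher in every injured library.

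Genes of detoxification and lipid handling fell more often than they rose. Of 46 antioxidant and detoxification genes 10 were lower and 5 higher. Gpx3, a secreted glutathione peroxidase (ENSMUSG00000018339, chromosome 11, 54902453 to 54910377), was at 3732 and 4575 CPM in the steady-state libraries and 444, 602, 388 and 801 CPM in the injured libraries (log2 fold change -2.89 ± 0.29, adjusted p = 0.00202). Gstm1, a glutathione transferase, was at 528 and 476 CPM in the steady-state libraries and 38.2, 51.0, 90.1 and 108 CPM in the injured libraries (log2 fold change -2.81 ± 0.37, adjusted p = 0.00543). Cat, Aldh2, Aldh3a1, Txnip, Ephx1, Por, Selenop and Aox1 also fell, and Gpx7, Gsto1, Txnrd1, Sod2 and Cbr2 rose. All 10 that fell stayed called with mitotic cells removed, and all but Aox1 after thinning. Of the rises the list held 4 with mitotic cells removed and 1 after thinning. Cbr2 was highest in injured library 4, the library with the macrophage markers. Of 25 lipid genes 6 were lower and 1 higher, and their sum was 3403 and 3734 CPM in the steady-state libraries and 777, 1067, 1486 and 1907 CPM in the injured libraries. Scd1, which desaturates fatty acids (ENSMUSG00000037071, chromosome 19, 44394455 to 44407879), was at 120.3 and 138 CPM in the steady-state libraries and 20.5, 21.3, 18.3 and 30.5 CPM in the injured libraries (log2 fold change -2.52 ± 0.21, adjusted p = 0.00122), and Apod, a carrier of small lipids, was at 2188 and 2303 CPM in the steady-state libraries and 74.0, 276, 545 and 709 CPM in the injured libraries (log2 fold change -2.49 ± 0.66, adjusted p = 0.0465). The lipases Pnpla2 and Lipe, the transporter Abca8a and Plin3 fell, and Fabp5, a fatty acid carrier, rose (2.73 ± 0.66). Of 22 cholesterol synthesis genes Srebf1 fell. Injured library 1 had a sum of 674 CPM for these genes, against 254 to 316 CPM in the other injured libraries. Without it 11 of 21 tested were lower, beside 865 of 10751 over all genes.

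Lepr, the leptin receptor (ENSMUSG00000057722, chromosome 4, 101717404 to 101815352), was at 58.2 and 87.7 CPM in the steady-state libraries and 1.27, 0.440, 2.17 and 4.67 CPM in the injured libraries (log2 fold change -5.27 ± 0.50, adjusted p = 0.00156). The leukotriene receptor Cysltr1 fell from 59.9 and 61.3 CPM to between 3.38 and 8.41 CPM. In the prostaglandin list the prostacyclin receptor Ptgir (ENSMUSG00000043017, chromosome 7, 16906490 to 16910905), the degrading enzyme Hpgd and the synthase Ptgis fell, and Ptgs2, the inducible cyclooxygenase, rose (1.74 ± 0.46). Ptgir was at 15.2 and 20.3 CPM in the steady-state libraries and 2.64, 3.52, 4.34 and 3.11 CPM in the injured libraries (log2 fold change -2.42 ± 0.28, adjusted p = 0.00349). Retinoid genes split, with the binding proteins Crabp1 and Crabp2 and the dehydrogenase Rdh10 higher and the receptor Rarg and the responders Rarres1 and Rarres2 lower. Crabp2 was at 19.1 and 68.5 CPM in the steady-state libraries and 543, 280.0, 308 and 230.1 CPM in the injured libraries (log2 fold change 2.93 ± 0.56, adjusted p = 0.0181), and Rarres2, which encodes chemerin, at 1518 and 1544 CPM in the steady-state libraries and 54.7, 227, 383 and 373 CPM in the injured libraries (log2 fold change -2.56 ± 0.59, adjusted p = 0.0316). The retinoid sum was 1854 and 2012 CPM in the steady-state libraries and 927, 763, 990 and 896 CPM in the injured libraries. Most of it at rest was Rarres2. The other listed retinoid genes together lay higher in every injured library than in the steady-state libraries. Of 16 clock genes Dbp and Nr1d1 fell, and times of day of collection are not given in the sources used here.

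Myoc, a secreted glycoprotein (ENSMUSG00000026697, chromosome 1, 162639155 to 162649693), was at 1002 and 2458 CPM in the steady-state libraries and 9.81, 57.2, 58.8 and 95.3 CPM in the injured libraries (log2 fold change -4.98 ± 0.71, adjusted p = 0.00702). Thbd, the thrombin receptor thrombomodulin that turns thrombin towards protein C (ENSMUSG00000074743, chromosome 2, 148404466 to 148408188), was at 252 and 295 CPM in the steady-state libraries and 14.6, 19.8, 34.7 and 31.8 CPM in the injured libraries (log2 fold change -3.46 ± 0.32, adjusted p = 0.00135). Procr, the protein C receptor, fell with it (-1.75 ± 0.16). Cytl1, a cytokine-like secreted protein, was at 182 and 227 CPM in the steady-state libraries and 21.9, 0, 26.0 and 14.3 CPM in the injured libraries (log2 fold change -3.71 ± 0.84, adjusted p = 0.0301). The fall of Cytl1 was not stable over the alternatives. It ranged from -5.23 to -0.56 on the log2 scale, the smallest with cells of 2 or more cell cycle UMIs removed (adjusted p = 0.857). That setting took out 85 and 139 of the 234 and 339 gate cells of the steady-state libraries. From the injured libraries it took out 392, 233, 171 and 174 of 434, 332, 219 and 287 gate cells. The fall also missed the threshold among cells with a Thy1 UMI and after thinning. It missed it with DESeq2 too, which was run on the same cells as the main test. Why the fall varied was not tested. Scg3, Galnt15, Ppl, Abca8b and Ly6c2 complete the 15 largest falls among genes with at least 30 CPM in the higher group, and Ly6c2 belongs to a family of near-identical genes whose counts can be split.

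Transcription factors of fibroblast and skeletal identity fell more often than they rose, with 16 of 46 lower (34.8%) and 5 higher (10.9%), read against 5.98% and 5.35% of all genes. Tbx5, a limb and heart factor (ENSMUSG00000018263, chromosome 5, 119832668 to 119885219), was at 21.2 and 38.1 CPM in the steady-state libraries and 4.96, 5.93, 6.19 and 4.67 CPM in the injured libraries (log2 fold change -2.47 ± 0.27, adjusted p = 0.00262). Ebf1, Ebf2, Foxp1, Foxp2, Foxo1, Meox2, Prrx1, Twist1, Pitx1, Creb5, Nfib, Klf3, Klf5, Zeb2 and Zfhx4 were the others that fell. Runx1 (ENSMUSG00000022952, chromosome 16, 92601466 to 92826149) was at 33.2 and 18.8 CPM in the steady-state libraries and 91.2, 127, 114 and 119 CPM in the injured libraries (log2 fold change 2.13 ± 0.27, adjusted p = 0.00461), and Snai1, Sox4, Prrx2 and Plagl1 also rose. Prrx1 and Prrx2, a pair of related homeobox genes, thus moved in opposite directions (-0.92 ± 0.24 and 1.15 ± 0.28).

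The Pi16+ universal fibroblast genes, which mark a fibroblast population found across tissues, were lower in 8 of 12 and higher in 0, with all 12 fold changes negative. The study used Pi16 and Cd55 to describe a cluster of these same libraries, so that the list is not independent evidence of its direction. Efhd1, a calcium-binding mitochondrial protein (ENSMUSG00000026255, chromosome 1, 87264363 to 87310839), was at 130.1 and 113 CPM in the steady-state libraries and 9.92, 11.9, 15.2 and 19.6 CPM in the injured libraries (log2 fold change -3.13 ± 0.25, adjusted p = 0.00118). Anxa3, Procr, Cd55, Sema3c, Cd248, Dpp4 and Limch1 were the other 7. Pi16 itself was at 1706 and 1076 CPM in the steady-state libraries and 36.9, 285, 277 and 548 CPM in the injured libraries and did not pass (adjusted p = 0.079). Among cells that also held a Thy1 UMI 8 of the 12 were lower as well.

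The Tom-GFP+ cells in the same gate (358 steady-state cells from 1 library, 373 and 184 injured cells) moved the same way for nearly all of these genes. Of the 582 genes higher in Tom+ cells 569 (97.8%) had a positive fold change in Tom-GFP+ cells, and of the 650 lower genes 642 (98.8%) had a negative one, against 50.5% positive among all genes. In 550 and 620 of them both injured Tom-GFP+ libraries lay beyond the steady-state library in that direction (94.5% and 95.4%), against 38.1% of all genes with both above it and 39.1% with both below. The mice of the lineages were matched, so that this is not a check in other animals, and the lone steady-state library was taken to vary like the other groups. That library had the older gene list format and both injured Tom-GFP+ libraries the newer. Format and injury cannot be told apart in this lineage. The 15 largest rises at 30 CPM or more were all positive, with a median of 5.71 in Tom-GFP+ and 6.36 in Tom+ cells, and the 15 largest falls all negative, at -3.12 and -3.59, although for 1 of them the injured Tom-GFP+ libraries were not both below the steady-state library (14 of 15 were). Cxcl13 had -4.52 in Tom-GFP+ cells, Lepr -2.61, H19 3.03 and Cytl1 -0.62. A test of the difference between the lineages' effects (interaction, edgeR) called 0 of 11796 genes at a false discovery rate of 0.05, with 228 at an unadjusted p under 0.05 and a smallest adjusted p of 0.596. Without a filter on low counts it called Spp1 and Eln, whose interactions were -6.63 and -2.92 on the log2 scale. Both rose in Tom+ cells and fell in Tom-GFP+ cells. Spp1 was at 6.85 and 20.7 CPM at rest and 200 to 1089 CPM after injury in Tom+ cells. Its Tom-GFP+ levels were 1034 CPM at rest and 484 and 349 CPM after injury. Eln was at 12.1 and 16.8 CPM at rest and 35.8 to 55.7 CPM after injury in Tom+ cells. Its Tom-GFP+ levels were 188 CPM at rest and 86.3 and 70.2 CPM after injury. With 1 library in a group the test does not show that the effects were alike.

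**Figure D4:**
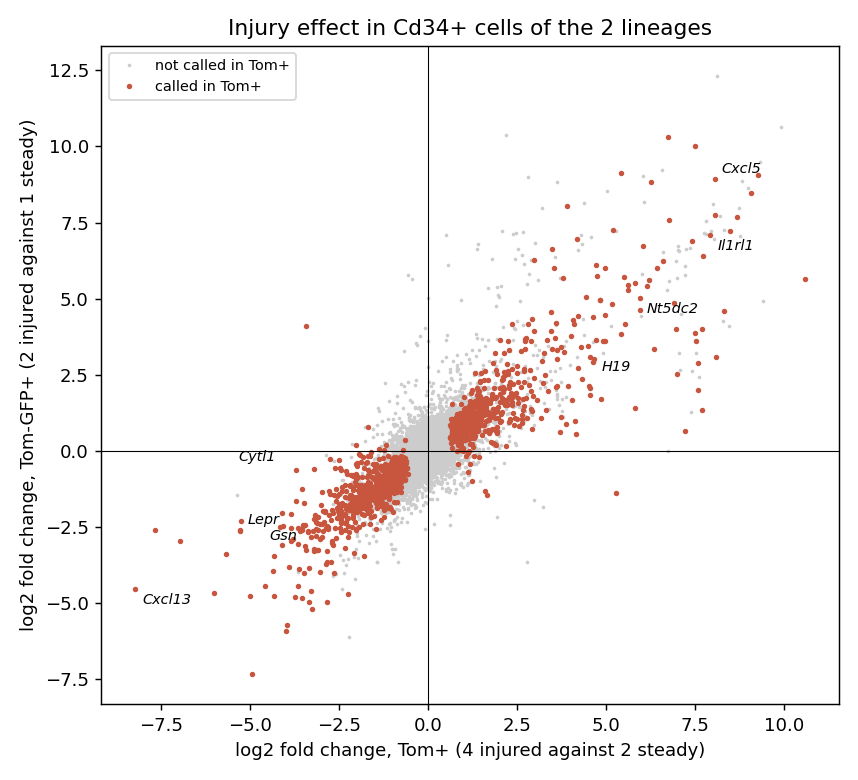
Each point is 1 gene, with its log2 fold change after injury in Tom+ cells on the horizontal and in Tom-GFP+ cells on the vertical axis, and genes called in Tom+ cells in red. Of 1232 called genes, 569 of the higher and 642 of the lower lie on the same side of 0 in both.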

How the data were processed

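Single-cell RNA-seq libraries were made with the 10x 5' kit (version 2). The authors deposited raw UMI counts per gene and barcode. Their processing notes name Cell Ranger and GRCm38.p6, and the headers of the newer matrices give Cell Ranger 3.0.2. Symbols of the form Gm plus digits, or holding -ps, were left out (1.65% to 5.27% of gate UMIs). Gate cells were summed per library (1990697 to 9725022 UMIs with those symbols, 1885873 to 9516089 without them). The sums without them were filtered with filterByExpr, scaled by TMM and tested with edgeR 4.0.16 (quasi-likelihood, Benjamini-Hochberg, threshold 0.05) in R 4.3.3. DESeq2 1.42.0 was an alternative. Doublets were treated by leaving out the highest 5% of Scrublet scores (scanpy 1.11.5) as an alternative. Other alternatives changed the gate, depth, filter, scaling, block, gene list format and libraries, and removal of mitotic cells was chosen after seeing the data. The members and lists were chosen with earlier results of these data known. Genes were named as the 15 largest changes a direction among called genes with at least 30 CPM in the higher group and no overlap, up to 6 called members a list by smallest adjusted p, and the gate genes, reporters and markers. Other list members are named to account for counts, after their values were seen. Counting intervals (95%) cover counting error only. In simulated data 96.0% of 4-fold rises and 68.9% of 4-fold falls were recovered, and 10.0% and 13.3% of 2-fold changes. Of 54532 gene identifiers 54409 were in GENCODE vM21, from which GRCm38 positions were taken. Near-identical genes such as Ly6c2, Hist1h2ap and H2-Q4 can share reads. A few called list members are counted but not reported here by name.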

Additional observations from a re-analysis of the deposited data

Results flagged for a closer look

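In 8 of 192 groups of 4 injured values examined, 1 library lay far from the other 3 by Dixon's criterion (a gap above its 95% critical value). Chance alone gives about 1 in 20. Bmp5 was at 3.48, 1.32, 1.55 and 1.25 CPM in injured libraries 1 to 4, and library 1 stood apart with a gap of 0.865 of the range. Cadm1 was at 0, 0.659, 0 and 0 CPM in injured libraries 1 to 4, and library 2 stood apart with a gap of 1.00 of the range. Dbp was at 8.76, 10.1, 21.4 and 9.96 CPM in injured libraries 1 to 4, and library 3 stood apart with a gap of 0.893 of the range. Fgf7 was at 40.4, 43.5, 40.6 and 59.2 CPM in injured libraries 1 to 4, and library 4 stood apart with a gap of 0.834 of the range. Penk was at 11.3, 24.6, 26.3 and 26.2 CPM in injured libraries 1 to 4, and library 1 stood apart with a gap of 0.886 of the range. Pfkfb3 was at 15.5, 11.7, 11.8 and 11.5 CPM in injured libraries 1 to 4, and library 1 stood apart with a gap of 0.938 of the range. Sema3e was at 10.2, 12.1, 22.3 and 10.6 CPM in injured libraries 1 to 4, and library 3 stood apart with a gap of 0.846 of the range. Slit3 was at 13.4, 20.9, 21.4 and 20.2 CPM in injured libraries 1 to 4, and library 1 stood apart with a gap of 0.858 of the range.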

How the results depend on the processing

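Of the 582 higher and 650 lower genes, the counts moved by over 1.5 times when cells with 2 or more cell cycle UMIs were removed (180 and 205), after thinning to 4000 UMIs (262 and 312), with the gene list format, older in both steady-state libraries and injured library 1, as a covariate (1225 and 1062) and, for higher genes, with a replicate block (899, beside 860 lower). Leaving out 1 library gave 20 to 839 higher and 33 to 865 lower genes, lowest without steady-state library 2 and highest without injured library 1. Without steady-state library 1 they were 39 and 66, without injured library 2 194 and 211, without injured library 3 295 and 352, and without injured library 4 824 and 671. The share of higher among all calls was 47.2%, and 37.1% and 37.7% without steady-state libraries 1 and 2. The older-format libraries alone gave 748 and 688, sharing 371 and 343 with the full comparison. DESeq2 gave 792 and 689, and no filter on low counts 804 and 642. The cause of these shifts was not tested. No called gene that was still tested changed sign, except 2 when cells with cell cycle UMIs were removed. Replicate numbers do not pair these libraries, which came from separate mice. Correlations of deviations from the group means (-0.094 and 0.027) cannot test this, since the deviations of 2 steady-state libraries mirror each other. The interaction test called 0 genes, 2 without a filter on low counts, and 0 to 0 on leaving out 1 library. In simulated data with 45 to 50 changed genes at each size few 2-fold changes were recovered. Fewer genes were changed there than were called in the data, so the share recovered cannot be carried over to this comparison. Calls here included changes under 2-fold, such as Atp5g2 (log2 fold change 0.70) and Amotl1 (-0.84).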
